A study of Mus musculus with 2 samples.

Results

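DNA repair and damage signalling genes were examined as 53 of the 31017 genes measured in TUBO cells. The members were taken by symbol from the count table, and they cover homologous recombination, the Fanconi anaemia pathway, end joining, damage kinases, mismatch repair, excision repair and direct reversal. TUBO is a cloned mouse mammary carcinoma line from a BALB/c mouse with a rat neu oncogene transgene that is driven by a mammary tumour virus promoter. The cells were untreated and grew flat on plastic in serum-containing medium, and RNA of 2 replicates of this 1 group was sequenced. The labels do not say whether the replicates were separate cultures, so their spread may be technical. The design holds no treated or mutant group, so each gene's level and its agreement between the 2 libraries are what was measured.

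Cells repair different DNA lesions by different machines. Breaks of both strands are either joined end to end, starting with the Ku heterodimer, or copied from the sister chromatid by homologous recombination, in which BRCA1, PALB2 and BRCA2 act together. The Fanconi pathway unhooks crosslinks between strands, mismatch repair corrects replication errors, excision repair removes damaged bases or bulky adducts, and the kinases ATM, ATR, CHK1 and CHK2 carry the damage signal to the cell cycle. In breast epithelium this network is best known from the inherited cancer genes BRCA1 and BRCA2.

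The epithelial identity in the label was checked against marker genes. All 6 mammary epithelial markers were abundant, from Elf5 at 178.9 ± 3.31 TPM to Krt18 at 3232 ± 68.1 TPM (SD, n = 2). TPM is counts divided by exonic length and scaled to the same total in each library. Among the 6 is the mouse counterpart of neu, and whether reads of the rat transgene were counted to it was not tested. The 5 leukocyte markers had at most 1 count in a library, with Ptprc, Cd3e and Adgre1 at 0. Of the fibroblast markers Col1a1 had 37 and 18 counts in replicates 1 and 2, and the other 4 had none. Of the endothelial markers Pecam1 had 6 and 8 counts, Tek had 4 and 1, and Cdh5 and Kdr had none. Replicate 1 held 35453278 counts and replicate 2 held 34098259.

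Nearly the whole repair network was expressed. Of the 53 members, 52 reached 1 CPM, a count scaled to library size, in both libraries, the level called detected here, against 37.7% of all genes in the table and 50.6% of its protein-coding genes. The exception was Mgmt, the enzyme that strips alkyl groups from guanine in a single step. Expression was moderate. The median over all members was 18.26 TPM in replicate 1 and 17.78 TPM in replicate 2, and that over detected members averaged 18.23 TPM, against 28.54 TPM for all detected genes. Of the members 13 lay above the median of all detected genes, 34 members lay between 10 and 30 TPM and 6 lay below 10 TPM. In bulk RNA, a low level in every cell and a high level in few cells cannot be told apart.

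**Figure D1:**
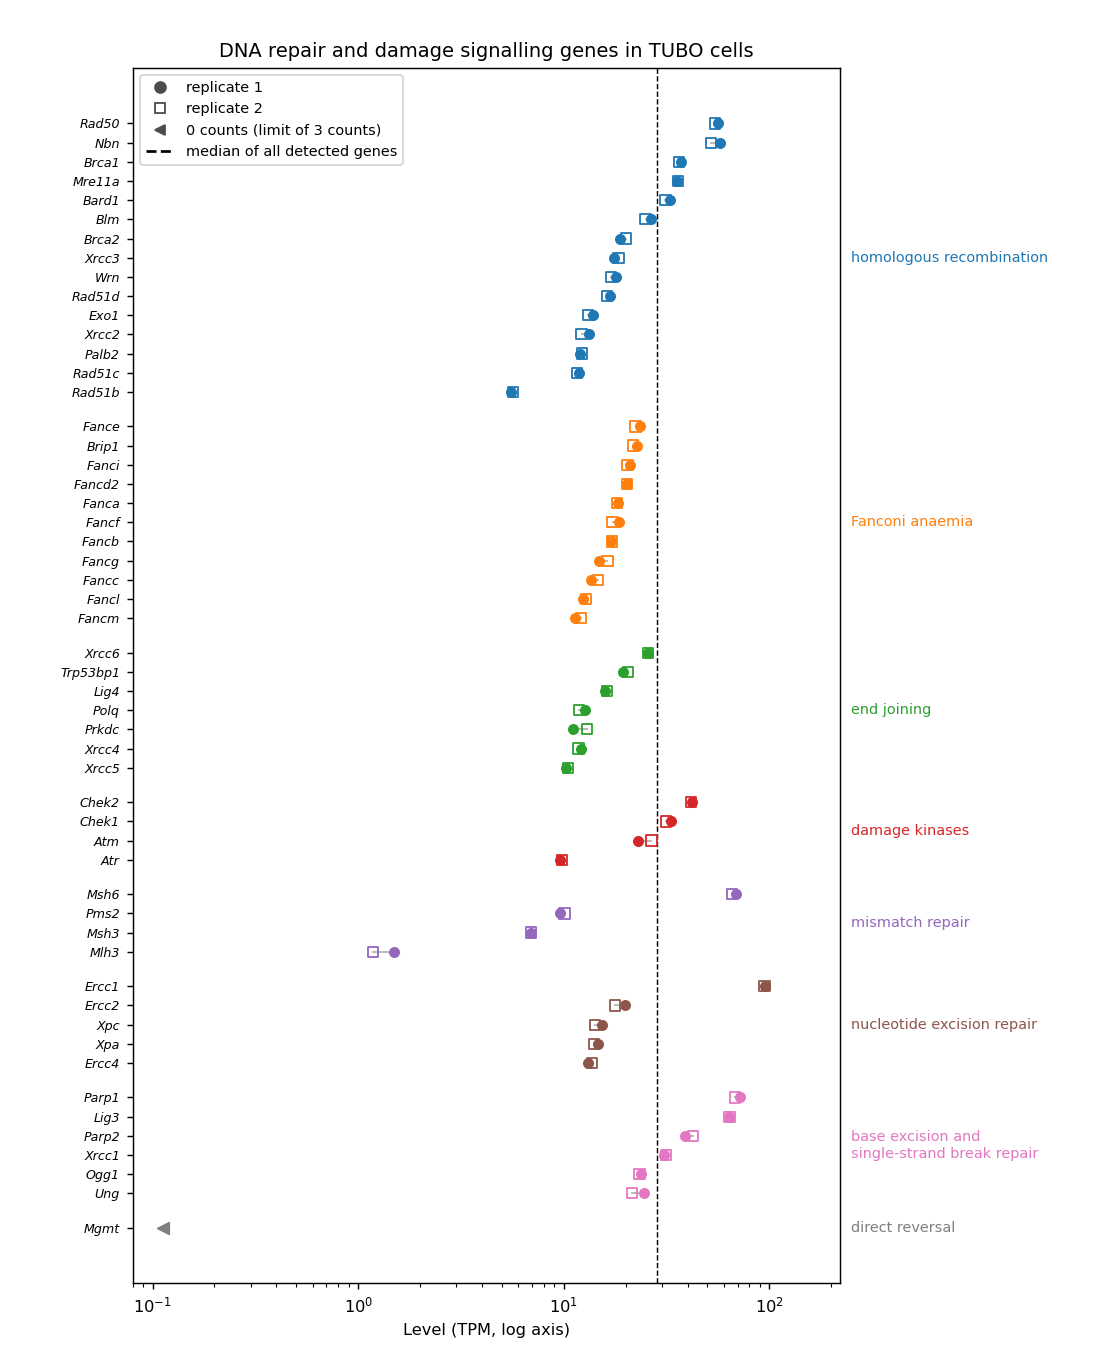
Level of each repair gene in TPM on a log axis, grouped by pathway, with a filled circle for replicate 1 and an open square for replicate 2. The dashed line marks the median of all detected genes (28.54 TPM), and Mgmt, with 0 counts, is drawn at the level that 3 counts would give in replicate 1 (0.112 TPM); the Fanconi genes all lie to the left of the line.

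Regulatory sequence was examined first. E2F factors are known to drive many genes of DNA synthesis and repair in dividing cells. RefSeq start windows (GRCm38.p6, 250 bases before to 50 bases after the start) were found for 44 of the 53 members. Each window was searched on both strands for the 4 words TTTCCCGC, TTTCGCGC, TTTGCCGC and TTTGGCGC, which spell out a common E2F consensus. At least 1 word was found for 8 members, which were Bard1, Brca2, Chek2, Fancg, Msh3, Msh6, Rad51c and Xrcc6. Counted by window, 18.4% of member windows held a word, against 2.26% of all 32851 windows and 2.85% of those of protein-coding genes. TTTCCCGC was the most frequent, in 7 members, and TTTGCCGC was found in none. In Msh3 the words TTTGGCGC and TTTCGCGC overlapped on opposite strands. The 8 members with a match had a median of 22.54 ± 0.378 TPM and ranged from Msh3 at 6.96 TPM to Msh6 at 67.4 TPM, and the 36 without had 18.23 ± 0.321 TPM. These ranges overlap widely. The following stretches, read on the strand of the gene and lying before its annotated exons, are shown because they hold the match of the BRCA1 partner gene and of Brca2. Capitals mark TTTCCCGC in Bard1 and its complement in Brca2, which begin 209 and 168 bases before the RefSeq start.
Bard1, chr1:71103148-71103207, minus strand: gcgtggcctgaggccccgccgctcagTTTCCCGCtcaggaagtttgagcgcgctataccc
Brca2, chr5:150522427-150522486, plus strand: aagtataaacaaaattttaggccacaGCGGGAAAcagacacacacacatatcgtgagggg

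CCAAT, the letters bound by NF-Y, was found on either strand in 27 of 49 member windows (55.1%), against 37.4% of all windows. TTTGAA, the core letters of an element in late cell cycle genes, stood in 3 member windows (6.12%), against 17.9% of all windows. The windows of Bard1, Polq and Rad51b held it. A match is a run of letters and not a measured binding site.

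Many repair genes start head to head with another gene. By GENCODE M21, 20 of the 53 members (37.7%) had their start within 1000 bases of the start of a protein-coding gene on the opposite strand, against 10.8% of all 21721 protein-coding genes. Within 500 bases there were 18 members, against 8.81% of protein-coding genes. Of the members 52 were detected, and the share among detected protein-coding genes was not counted. The start positions differed by 21 bases for Lig4 and Abhd13, 30 bases for Fancd2 and Emc3, and 40 bases for Xpc and Lsm3. The annotated starts overlapped in the pairs Fancf and Gas2, Mre11a and Ankrd49, and Xrcc4 and Tmem167, among others. The stretches between the starts of 4 such pairs are shown because they hold all the bases between both annotated starts. Capitals mark CCAAT, its complement ATTGG and the complement of TTTCCCGC, and the stretch beside Palb2 holds none of these.
Brca1 and Nbr1, chr11:101551956-101552148, minus strand: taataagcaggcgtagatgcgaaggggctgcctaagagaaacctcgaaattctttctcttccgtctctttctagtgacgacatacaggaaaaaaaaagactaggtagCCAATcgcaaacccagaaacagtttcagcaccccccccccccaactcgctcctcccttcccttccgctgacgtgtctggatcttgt
Chek2 and Hscb, chr5:110839778-110839978, plus strand: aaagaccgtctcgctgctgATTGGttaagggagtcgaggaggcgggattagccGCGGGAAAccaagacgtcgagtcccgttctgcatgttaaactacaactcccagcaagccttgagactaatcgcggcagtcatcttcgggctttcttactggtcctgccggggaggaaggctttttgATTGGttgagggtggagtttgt
Pms2 and Aimp2, chr5:143909848-143909963, plus strand: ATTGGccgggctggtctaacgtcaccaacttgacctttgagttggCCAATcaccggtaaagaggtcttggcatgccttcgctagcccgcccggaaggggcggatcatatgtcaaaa
Palb2 and Dctn5, chr7:122132986-122133040, minus strand: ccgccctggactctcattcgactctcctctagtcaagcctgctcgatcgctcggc

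Levels within a pair often differed. By exonic length the neighbour was above the repair gene in 14 of 20 pairs. That count has no background, and the median of detected members was itself below that of all detected genes (18.23 against 28.54 TPM). Of the neighbours 18 of 20 were detected, against 50.6% of protein-coding genes. The repair genes of these pairs were all detected themselves, and the share among neighbours of other detected genes was not counted. Prkdc, the catalytic kinase of end joining, was at 11.08 and 12.96 TPM in replicates 1 and 2. Its neighbour Mcm4, a subunit of the replicative helicase, was at 193.9 and 181.8 TPM, with start positions that differed by 466 bases. Brca1 was at 37.06 and 36.20 TPM and Nbr1, an autophagy receptor, at 117.3 and 116.9 TPM. The opposite order was seen for Rad51c, at 11.84 and 11.63 TPM, whose neighbour Tex14, a gene of germ cell bridges, had 23 and 15 counts. Chek2 (42.03 and 41.66 TPM) and Hscb (39.16 and 38.68 TPM), a factor of iron-sulphur cluster assembly, were closest in level. Parp2 was at 38.92 and 42.54 TPM, and Ccnb1ip1 beside it was listed at 3948 and 4511 TPM. The Ccnb1ip1 value is uncertain, since 233 of its exonic bases (12.4%) lie on the same strand as Rpph1, the RNA of ribonuclease P, for which the table has no row.

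**Figure D2:**
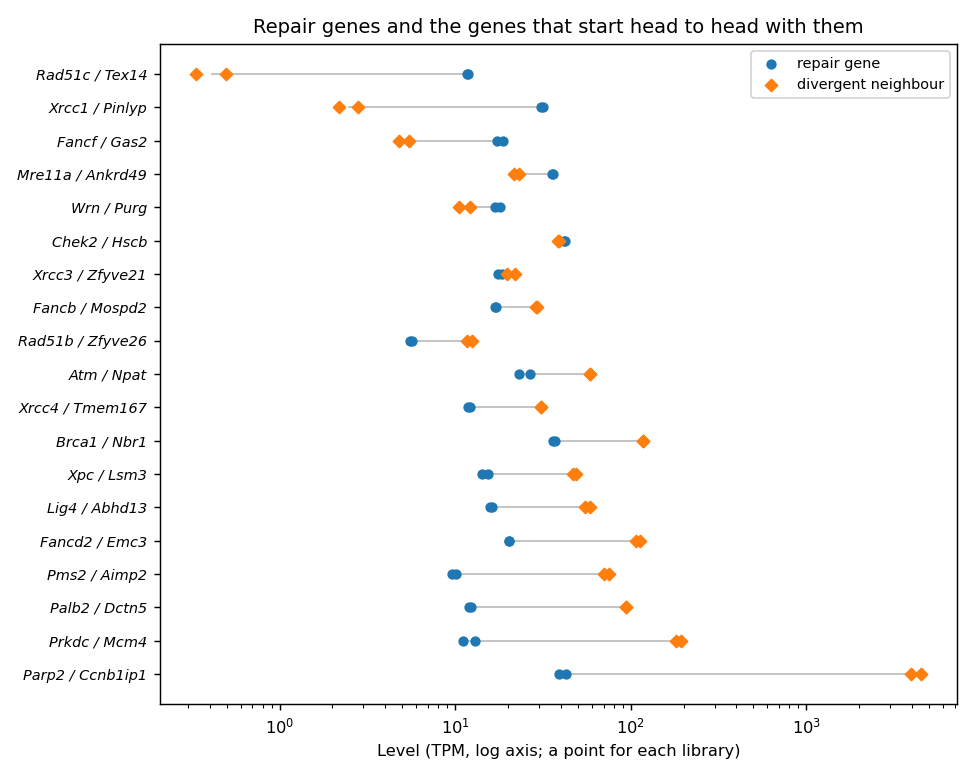
Levels in TPM (log axis) of 19 of the 20 repair genes (circles) and of the protein-coding genes that start head to head with them (diamonds), with a point for each library and a line between the means. Rows run from the pair with the lowest ratio of repair gene to neighbour at the bottom (Parp2 to Ccnb1ip1) to the pair with the highest at the top; the neighbour lies to the right in 13 of the 19 pairs drawn.

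Among homologous recombination genes, the break-sensing genes Rad50 and Nbn were highest and Rad51b lowest. All 15 were detected, with a median of 17.91 TPM in replicate 1 and 18.46 TPM in replicate 2. Rad50 (chromosome 11, 53649519 to 53707319, GRCm38) and Nbn (chromosome 4, 15957925 to 15992589), members of the break-sensing MRN complex, led the class. Rad50 was at 56.35 and 54.31 TPM and Nbn at 57.49 and 52.19 TPM in replicates 1 and 2. Mre11a, the nuclease of the complex, was at 35.69 and 36.08 TPM. Its ratio to Rad50 was 0.649 ± 0.0219 (SD, n = 2), while that of Nbn to Rad50 was 0.991 ± 0.0419. The nuclease gene Exo1, which extends resection, was lower at 13.53 ± 0.525 TPM. The RecQ helicase genes Blm and Wrn were at 25.78 ± 1.10 and 17.43 ± 0.680 TPM.

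Brca1 (chromosome 11, 101488764 to 101551955) and its heterodimer partner Bard1, which together form a ubiquitin ligase, were at like levels by exonic length. Bard1 was at 32.85 and 31.22 TPM, and the ratio of Brca1 to Bard1 was 1.14 ± 0.0221. It rose to 1.485 ± 0.02865 by the longest transcript. Brca2 (chromosome 5, 150522630 to 150570329), which acts in strand exchange, was at 18.81 and 19.99 TPM, so that Brca1 exceeded it 1.89 ± 0.113 times. Palb2, the bridge between them, was at 12.04 and 12.26 TPM. Brca2 was 1.60 ± 0.0484 times as high as Palb2, but 1.04 ± 0.0315 times when the longest transcript of each gene served as its length.

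Rad51b, Rad51c, Rad51d and Xrcc2 form the recombination complex BCDX2, and Rad51c and Xrcc3 form CX3. By exonic length Xrcc3 was highest of the 5 at 17.55 and 18.46 TPM, followed by Rad51d at 16.79 and 16.26 TPM, Xrcc2 at 13.32 and 12.20 TPM and Rad51c at 11.84 and 11.63 TPM. Xrcc3 was above Rad51d in both libraries, and Xrcc2 above Rad51c. Rad51b (chromosome 12, 79297282 to 79814690) was lowest of the class at 5.53 and 5.69 TPM, with 193 and 191 counts. Rad51c was 2.09 ± 0.0666 times as high as Rad51b by exonic length and 1.35 ± 0.0431 times by the longest transcript. The order of Rad51d and Xrcc2 turned with the length, with ratios of 1.30 ± 0.0510 by exonic length and 0.845 ± 0.0332 by the longest transcript. By the longest transcript Xrcc2 averaged 15.97 TPM and Xrcc3 averaged 15.93 TPM, so the place of Xrcc3 as the highest rests on the length used.

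All 11 Fanconi genes were detected, none lay above the median of detected genes, and by exonic length the highest was 1.96 times the lowest. By the longest transcript they ran from 12.17 TPM for Fancl and Fancm to 29.09 TPM for Fancc. Fance, a core complex gene that binds FANCD2, was highest by exonic length at 23.42 and 22.35 TPM. By the longest transcript Fance averaged 25.95 TPM, below Fancc and below Fanca at 27.76 TPM. Brip1, a helicase that binds BRCA1, was at 22.69 and 21.74 TPM. Fancd2 and Fanci, whose products form the clamp that the core complex ubiquitinates, stood at 20.37 and 20.37 TPM and at 21.04 and 20.41 TPM in replicates 1 and 2. Their ratio was 0.983 ± 0.0212, or 1.14 ± 0.0246 by the longest transcript. Of the other core complex genes by exonic length, Fanca, Fancb, Fancc, Fancf and Fancg lay between 14.1 and 18.2 TPM. Fancl, the ubiquitin ligase subunit, was at 12.43 and 12.80 TPM, and Fancm, the translocase that anchors the complex on DNA, was lowest at 11.29 and 12.10 TPM. Parts of the exons of Fanca, Fancc, Fancf, Fanci and Fancl lie on genes of the opposite strand, with the largest share, 18.6%, in Fancc. Whether the authors counted by strand is not stated, so these levels are uncertain.

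End joining genes had a low median, 12.70 TPM in replicate 1 and 12.96 TPM in replicate 2, and all 7 were detected. The Ku subunits were unequal. Xrcc6, the gene of Ku70, was at 25.75 and 25.64 TPM, while Xrcc5 (chromosome 1, 72307421 to 72394952), the gene of Ku80, was at 10.20 and 10.51 TPM with 242 and 240 counts. Xrcc6 exceeded Xrcc5 2.48 ± 0.0591 times, and 3.37 ± 0.0803 times by the longest transcript, so the size of the ratio rests on the length used. In Xrcc6 7.7% of exonic bases lie on Desi1 on the opposite strand. Xrcc5 was the lowest of the 7. Trp53bp1, the chromatin reader that favours end joining over resection, was at 19.44 and 20.57 TPM, with 15.0% of its exonic bases on other genes. Prkdc (chromosome 16, 15637866 to 15842235) averaged 12.02 ± 1.33 TPM. Lig4, the sealing ligase, was at 15.84 and 16.17 TPM. It exceeded its scaffold Xrcc4 1.34 ± 0.0437 times, or 1.127 ± 0.03675 times by the longest transcript. Xrcc4 was at 12.09 and 11.79 TPM. Polq, the polymerase of the alternative, microhomology-based route, was at 12.70 and 11.89 TPM. It was 0.769 ± 0.0468 times as high as Lig4, or 0.834 ± 0.0507 times by the longest transcript.

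Among the damage kinases the effectors were above the apical kinases. Chek2, activated by ATM, was at 42.03 and 41.66 TPM and Chek1, activated by ATR, at 33.16 and 31.46 TPM. The ratio of Chek1 to Chek2 was 0.772 ± 0.0239, or 0.7148 ± 0.02215 by the longest transcript. Atm (chromosome 9, 53439149 to 53536740) was at 23.06 and 26.68 TPM. Prkdc was 0.483 ± 0.00382 times as high as Atm. Atr was at 9.54 and 9.83 TPM, but its annotated exons add up to 23629 bases and its longest transcript was 8102 bases long. By the longest transcript the ratio of Atr to Atm was 1.08 ± 0.0883, against 0.391 ± 0.0319 by exonic length. The order of Atr and Atm is therefore not settled by these counts.

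Mismatch repair genes spanned the widest range of the classes with more than 1 detected gene. Msh6 (chromosome 17, 87975062 to 87990892), whose product takes part in recognising base mismatches, was at 69.17 and 65.70 TPM. Msh3 (chromosome 13, 92211872 to 92355003), whose product acts at larger loops, was at 6.97 and 6.95 TPM. Msh6 exceeded Msh3 9.69 ± 0.332 times, and 3.75 ± 0.128 times by the longest transcript. Pms2, a nuclease subunit gene of mismatch repair, was at 9.61 and 10.09 TPM. Mlh3 (chromosome 12, 85234520 to 85270599), known best from meiotic crossing over, was the lowest detected member at 1.497 and 1.184 TPM, with 105 and 80 counts. Pms2 exceeded it 7.47 ± 1.48 times.

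In nucleotide excision repair, Ercc1 (chromosome 7, 19344778 to 19356524) stood apart as the highest of all 53 members, at 94.83 and 94.65 TPM. Its product works as a heterodimer with XPF, the product of Ercc4, to cut the damaged strand. Ercc4 was at 13.14 and 13.73 TPM, and the ratio of Ercc4 to Ercc1 was 0.142 ± 0.00457, or 0.0822 ± 0.00265 by the longest transcript. The helicase gene Ercc2 was at 19.78 and 17.78 TPM, with 42.7% of its exonic bases on other genes. The damage sensor gene Xpc (15.39 and 14.17 TPM) and the scaffold gene Xpa (14.73 and 13.99 TPM) were close together, and their difference was within the spread between libraries. Xpa averaged 17.08 TPM and Xpc 14.55 TPM by the longest transcript.

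Base excision and single-strand break repair genes were the highest class, with a median of 34.77 TPM in replicate 1 and 37.01 TPM in replicate 2, and 4 of the 6 lay above the median of detected genes. The class median averaged 54.39 TPM by the longest transcript. Parp1 (chromosome 1, 180568924 to 180601254), which senses breaks and marks them with ADP-ribose, was at 71.93 and 68.10 TPM. It exceeded its relative Parp2 1.73 ± 0.175 times, or 1.41 ± 0.143 times by the longest transcript. Lig3, the ligase of this route and of mitochondrial DNA, was at 63.49 and 63.96 TPM and its scaffold Xrcc1 at 30.63 and 31.47 TPM. The ratio of Lig3 to Xrcc1 was 2.05 ± 0.0290 by exonic length and 1.09 ± 0.0154 by the longest transcript, and 25.1% of the exonic bases of Lig3 lie on Rffl on the opposite strand. The glycosylase genes Ogg1, for oxidised guanine, and Ung, for uracil, were at 23.79 and 23.37 TPM and at 24.58 and 21.46 TPM in replicates 1 and 2. In Ogg1 10.6% of exonic bases lie on Camk1 on the opposite strand.

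Mgmt (chromosome 7, 136894614 to 137130266) was the only member listed without a count in both libraries. A count of 0 allows up to 3 counts, or 0.112 TPM in replicate 1 and 0.116 TPM in replicate 2, covering counting error only. The dioxygenase genes Alkbh2 and Alkbh3, which reverse other alkyl lesions directly, were both detected, at 16.57 ± 1.16 and 23.13 ± 1.23 TPM.

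Of 20 pairs of partners or alternatives, 8 were at least 2-fold apart in both libraries. They were Xrcc6 and Xrcc5, Rad51c and Rad51b, Lig3 and Xrcc1, Ercc4 and Ercc1, Msh6 and Msh3, Pms2 and Mlh3, Atr and Atm, and Prkdc and Atm. By the longest transcript 5 pairs were, and Rad51c to Rad51b, Lig3 to Xrcc1 and Atr to Atm no longer passed. No p-value accompanies these ratios, because 0.5 is the smallest that an exact sign test over 2 libraries allows. The share of other pairs of detected genes that lie 2-fold apart was not counted, and some genes enter several pairs.

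**Figure D3:**
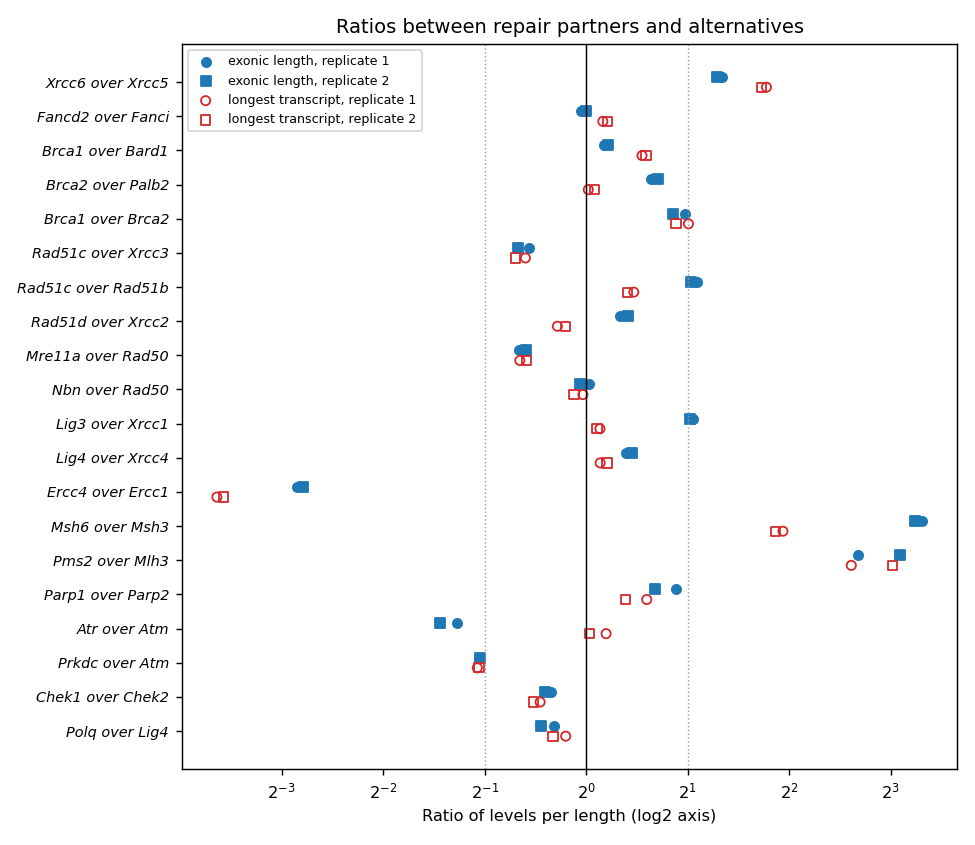
Ratio of the levels per length of 20 pairs of repair genes on a log2 axis, by exonic length (filled blue) and by the longest transcript (open red), with circles for replicate 1 and squares for replicate 2. Dotted lines mark 2-fold; Ercc4 over Ercc1 lies far left at 0.142 and Msh6 over Msh3 far right at 9.69, and Atr over Atm changes side with the length used.

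The rest of the repair machinery was taken from a list of 107 further genes, of which 105 were detected, with a median of 19.43 ± 0.692 TPM over the 106 with a length. The 2 below 1 CPM were Dmc1, the meiotic recombinase, with 0 counts in both libraries, and the glycosylase gene Neil2, with 8 and 9 counts. Nucleotide excision repair genes of this list were highest, with a median of 45.93 ± 0.683 TPM and all 13 detected. Ddb1, an adaptor of ubiquitin ligases that also binds UV damage, was at 555.5 ± 14.5 TPM and Gtf2h1, a subunit of the transcription factor TFIIH, at 244.9 ± 14.8 TPM, while the transcription-coupled repair genes Ercc8 (9.20 ± 0.417 TPM) and Ercc6 (5.46 ± 0.102 TPM) were lowest. Damage signalling genes, all 18 detected, had a median of 24.7 ± 0.320 TPM. The histone gene H2afx was at 374.1 ± 1.37 TPM and Babam1 at 99.35 ± 0.550 TPM, and the clamp gene Rad1 (6.56 ± 0.214 TPM) and the ubiquitin ligase gene Rnf8 (1.81 ± 0.0281 TPM) were lowest.

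Of the other recombination genes 22 of 23 were detected, led by Sfr1 (259.9 ± 9.13 TPM) and Swi5 (66.15 ± 0.323 TPM), which form an accessory complex of recombination. Mcm9, a helicase gene, was the lowest detected at 6.59 ± 0.363 TPM. All 8 other end joining genes with a length were detected, with the 53BP1 effector gene Rif1 highest at 52.24 ± 0.688 TPM, then the polymerase gene Poll at 31.26 ± 0.231 TPM, and the ligase cofactor gene Nhej1 (6.004 ± 2.41 TPM, on 80 and 43 counts) and the nuclease gene Dclre1c (5.49 ± 0.221 TPM) lowest. All 7 other Fanconi genes were detected, with the deubiquitinase gene Usp1 (90.48 ± 1.79 TPM) and its cofactor gene Wdr48 (36.69 ± 1.27 TPM) highest and the E2 enzyme gene Ube2t (15.41 ± 0.474 TPM) and the nuclease gene Fan1 (9.66 ± 0.308 TPM) lowest. In mismatch repair all 5 were detected, and the meiotic genes Msh5 (1.77 ± 0.159 TPM) and Msh4 (0.914 ± 0.0770 TPM) were lowest. Fen1, the flap nuclease (149.2 ± 6.96 TPM), and Lig1, the replicative ligase (114.1 ± 3.49 TPM), led base excision repair, where 19 of 20 were detected and Mutyh (6.61 ± 0.626 TPM) was the lowest of these. All 10 translesion synthesis genes were detected, from Rev1 (15.06 ± 0.757 TPM) and Rev3l (18.60 ± 0.413 TPM) to Hltf (36.98 ± 0.317 TPM) and Rad18 (39.06 ± 1.92 TPM).

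The libraries were compared gene by gene with a two-sided exact binomial test, which covers counting error only and compares these 2 libraries. Of 52 members tested 3 were called at an adjusted p under 0.05 (5.77%), against 8.13% of all 13336 genes tested, so the members' share was not above the background. Called higher in replicate 1 was 1 member, against 4.46% of all genes, and 2 were called lower in replicate 1, against 3.67%. The median log2 ratio of replicate 1 to replicate 2 was -0.01 over the members and 0.00 over all genes tested.

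Atm had 2213 counts in replicate 1 and 2466 in replicate 2, a log2 ratio of -0.23 (exact binomial test with Benjamini-Hochberg adjustment, adjusted p = 4.93e-06). Prkdc had 1356 and 1528 counts, with a log2 ratio of -0.24 (adjusted p = 0.000263, same exact test). Ung, with 1248 and 1049 counts, was higher in replicate 1 by 0.18 on the log2 scale (adjusted p = 0.0423, same exact test). The other large ratios were those of Mlh3 (0.32, on 105 and 80 counts), Ercc2 (0.14) and Fancg (-0.15), none of which was called. The exact test of edgeR called 0 members, against 0.142% of all genes. Its dispersion was estimated from these same 2 libraries as 1 group, so the difference under test enters the dispersion. Few calls are therefore built in, and the 0 does not show that the libraries agree.

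The background moved with the scaling. With total counts the same 3 members were called, against 9.71% of all genes, of which 6.91% were higher and 2.8% lower in replicate 1. With DESeq2 size factors they were again called, against 8.62% of all genes (5.37% higher, 3.25% lower in replicate 1). Without the expression filter Atm and Prkdc were called, against 5.31% of 18307 genes (2.91% higher, 2.4% lower in replicate 1). Of the 105 other repair genes tested, 7 were called by the binomial test (6.67%), 5 of them higher and 2 lower in replicate 1, and edgeR's exact test called 0.

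Both kinase genes called lower in replicate 1 are long. All 7 members with 10000 or more exonic bases had a log2 ratio below 0, with a median of -0.11. The share of all genes of that length below 0 was not counted. Over all 1192 tested genes of that length the median was -0.04 and 19.7% were called, in either direction. Over the 2218 tested genes under 2000 bases the median was also below 0, at -0.03. Across the 52 members, which are not independent replicates, Spearman's rho of log2 ratio with length was -0.221, and across 13188 genes it was -0.01. The part of length in the Atm and Prkdc differences was not tested.

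**Figure D4:**
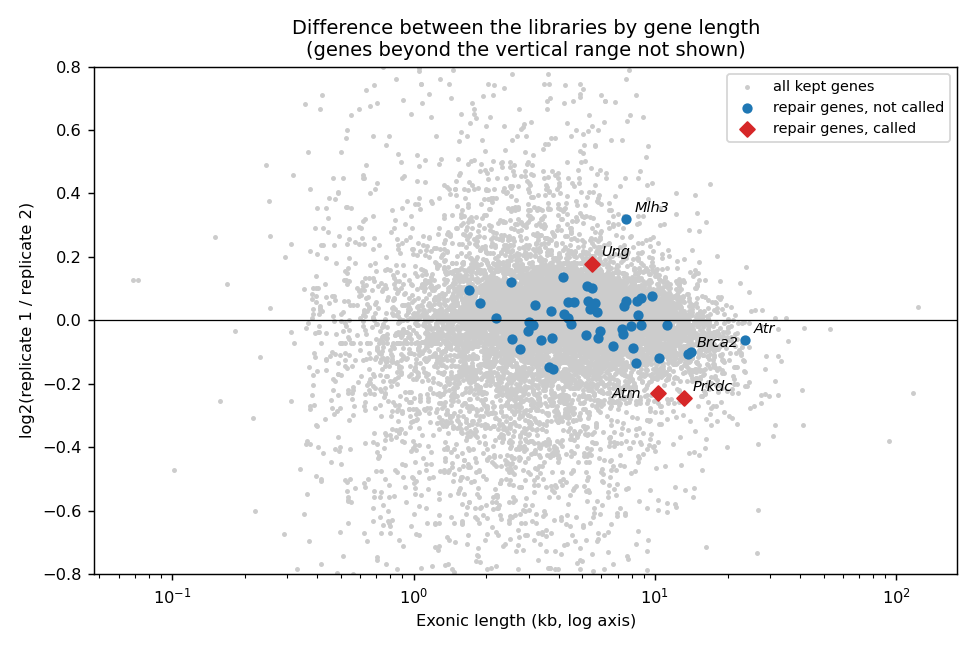
Log2 ratio of replicate 1 to replicate 2 against exonic length in kb (log axis) for all kept genes (grey), repair genes that were not called (blue) and the 3 called by the exact binomial test (red diamonds). Atm and Prkdc, at -0.23 and -0.24, lie below 0 at the long end, and Ung lies above 0 at 0.18.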

How the data were processed

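Stranded mRNA libraries of TUBO cells were sequenced, per the labels' protocols. The authors deposited raw counts per gene symbol for 31017 genes in 2 columns, assigned to replicates by the library names. STAR 2.7.9a, featureCounts and mm10 are listed in the submitters' processing notes, beside Cell Ranger 3.0.0, R 4.1.1 and FastQC 0.11.9, without roles. Annotation release and strand setting are not stated.

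From the counts, CPM was computed with TMM factors of 1.005 and 0.995 (edgeR 4.0.16, R 4.3.3). TPM used union exon lengths of GENCODE M21 (GRCm38) for 30416 genes with a single symbol match (98.1%). Levels and ratios are a mean ± SD over 2 libraries or a pair of library values. A single level or ratio without an SD is a mean over the 2 libraries, unless 1 library is named. After filterByExpr, the counts of 13336 genes entered an exact binomial test (two-sided, effective library sizes as weights, Benjamini-Hochberg adjustment). Log2 ratios had 0.5 added to each count. Alternatives were total counts, DESeq2 1.42.0 size factors, edgeR's exact test, other lengths, minimums and filters, and each library left out. On simulated libraries the test was checked against known changes. Exonic overlaps and 50-base windows shared with other genes were read from GENCODE; the genome outside transcripts was not searched.

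The members, lists, pairs and rule for named genes were chosen with earlier results of these data known. Named were the 3 highest and 2 lowest genes of each member class (every gene of classes of up to 6), both genes of each pair, called members, the 3 extreme library ratios in each direction, members below 1 CPM, head-to-head neighbours, and the 2 highest and 2 lowest other repair genes of each class. Other members and neighbours with values, and the 2-fold limit for pairs, the TPM ranges and the 10000-base limit were chosen after values were seen. Of the 109 other repair genes listed, 107 were analysed. Some genes that the rule would name are not reported here.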

Additional observations from a re-analysis of the deposited data

How the results depend on the processing

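The number of detected members was 52 with total counts, with DESeq2 size factors, at 0.5 CPM and from either library alone, and 51 at 5 CPM. The corresponding number of other repair genes was 105, or 97 at 5 CPM. The median over members moved to 18.67 TPM with the longest transcript as the length, against 18.02 TPM by exonic length. Without division by length it was 30.81 CPM, against 35.38 CPM over all detected genes with a length. The median over members by exonic length was 17.78 and 18.26 TPM in the single libraries. With the longest transcript 5 in place of 8 pairs were 2-fold apart, and these ratios turned round: Fancd2 to Fanci (1.14), Rad51d to Xrcc2 (0.845) and Atr to Atm (1.08). The ratio of Nbn to Rad50 was 1.02 in replicate 1 alone and 0.961 in replicate 2 alone. Of 52 member levels, 7 moved by over 1.5 times, up to 2.27 times for Atr. The 3 members called between libraries were also 3 with total counts and DESeq2 size factors, 2 without the expression filter, where Ung had an adjusted p of 0.0569 by the exact binomial test, and 0 with edgeR's exact test, where the adjusted p of Atm was 0.392. That test called 19 of all genes, against 1084 by the binomial test. Its dispersion was estimated from the same 2 libraries that it compares, so few calls were built in. The 2 words TTTCCCGC and TTTGGCGC alone gave the same count of 8 members. No paired analysis was possible because there is 1 group with 2 libraries, and the test between libraries cannot be run with 1 left out. Depth limits Mlh3, Rad51b and Xrcc5 most among detected members.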
